A study of Mus musculus with 3264 samples.

Results

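The genes described here encode the initiation and elongation factors of cytosolic translation and their nearest regulators. They are all rows of both deposited tables whose symbols begin with Eif1 to Eif6 or with Eef1 or Eef2, without the 4 eIF2 kinase (Eif2ak) rows and without pseudogene symbols. This gave 64 members among the 24781 rows of the cell line table, and the same 64 among the 25051 rows of the PBMC table. The study put single mouse cells into wells and counted RNA molecules by barcodes attached at the poly(A) end. Cells were taken from a mixture of 3 murine lines (leukemia, T cell and hematopoietic progenitor, HPC), or were mononuclear cells of the peripheral blood (PBMC) from C57BL/6J mice. Wells were filled by ALPS, a system that picks imaged cells, or by fluorescence-activated cell sorting (FACS).

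Groups were as follows. On 4 target plates ALPS picked cells by type, and the table holds on average 31.5 leukemia, 30 T and 18.25 HPC wells a plate by label. On 4 random plates (82.5 wells each) and 16 plates filled after time-lapse imaging (63 wells each) the labels give no line. On 2 FACS plates labels name a line (33 leukemia, 34 T and 22.5 HPC wells each). The 8 PBMC plates, filled after imaging, hold 43.25 wells each, of which 42.4 passed a minimum of 300 detected genes. The labels give no treatment, strain of the lines, animal or age, and whether a line is 1 clone is not given. A group is therefore a single sample, p-values cannot be had, and plates show technical spread. The median well held 38156 counts in the lines and 2147 in PBMC wells that passed. No doublet caller was run.

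Wells without a line label were classed by clusters made without the 64 members and named from line markers: 25 leukemia, 29.8 T and 27.8 HPC wells a plate on random plates, and 26.4, 19.9 and 16.7 on time-lapse plates. FACS wells followed their labels in 33.5% of cases, so the FACS labels went against the data and the wells are used by class (63, 64 and 52 wells). Target wells followed their labels in 99.1% of cases. The 3 exceptions were HPC wells on plate 4, and they were kept in the HPC values of target plates, which go by label. The 12 HPC markers summed to 4417 CPM in HPC target wells, 121.7 in leukemia and 17.2 in T wells. Clusters 3, 4 and 5 (leukemia, HPC and T) held 98.4% of the time-lapse wells and 1.21% of the random wells, which sat in clusters 2, 0 and 1. In the time-lapse T class the 7 T line markers summed to 1203.3 CPM (counts scaled to a sum of 1e+06) against 2469 CPM in random T wells, while the 7 leukemia markers summed to 405.97 against 35.3 CPM.

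Translation starts when eIF2 brings the initiator tRNA to the small ribosomal subunit and the eIF4F complex (cap-binding eIF4E, the scaffold eIF4G and the helicase eIF4A) loads mRNA through eIF3. eIF2B recharges eIF2 with GTP, and elongation then runs on eEF1A, which delivers tRNAs, eEF1B, which recharges eEF1A, eEF2, which moves the ribosome, and eIF5A. Many elongation factor mRNAs, like ribosomal protein mRNAs, are of the TOP class: their 5′ end is a C followed by pyrimidines, and mTOR signalling through LARP1 controls their translation.

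The annotated starts of the TOP factors and of the X and Y copies of the eIF2 gamma gene are shown because the results turn on both groups. Each window holds 20 bases before and 30 bases from the annotated start, read 5′ to 3′ from RefSeq (GRCm38.p6), with every run of C followed by at least 4 C or T in capitals. RefSeq's table matched 49 of the 64 members and 5 of the 9 TOP factors (Eef1a1, Eef1b2, Eef1d, Eef1g, Eef2, Eif3e, Eif3f, Eif3h and Eif4b).
Eef1a1 (chr9:78481695-78481744, minus strand): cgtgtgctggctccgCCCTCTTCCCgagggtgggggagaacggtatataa
Eef1b2 (chr1:63176811-63176860, plus strand): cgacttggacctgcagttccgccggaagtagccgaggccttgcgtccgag
Eef2 (chr10:81176611-81176660, plus strand): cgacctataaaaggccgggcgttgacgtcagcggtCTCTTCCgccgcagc
Eif3f (chr7:108934395-108934444, plus strand): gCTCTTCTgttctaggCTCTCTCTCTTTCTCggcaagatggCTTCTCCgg
Eif4b (chr15:102073753-102073802, plus strand): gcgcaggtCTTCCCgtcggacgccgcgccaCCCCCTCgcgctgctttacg
Eif2s3x (chrX:94212622-94212671, minus strand): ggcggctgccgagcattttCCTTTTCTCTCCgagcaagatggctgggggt
Eif2s3y (chrY:1010575-1010624, plus strand): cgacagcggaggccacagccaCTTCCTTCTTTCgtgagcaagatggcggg
Such a run lay somewhere in this window in 52.3% of all 32851 promoters of the table and in 2.51% the sequence read from the annotated start, base 21 of the window, opened with one, whether or not the run also reached upstream. Eif3f and Eif2s3x were the 2 members of which this held. The Eif3f run has 15 bases, 4 before the start and 11 from it, and the Eif2s3x run has 12 bases, 1 before the start and 11 from it. Eif2s3y has a run of 12 bases that begins just after the annotated start. Where any of these mRNAs truly begins was not measured here.

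The members together held between 1.32% and 2.96% of all counts of a plate and class. On target plates their share was 2.55 to 2.66% over the 4 plates in leukemia wells, 2.31 to 2.33% in T wells and 2.30 to 2.40% in HPC wells. The leukemia plates lay above all plates of the other lines, and the T and HPC ranges overlapped. PBMC plates held 1.32 to 1.58%, below every plate of every line class.

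The split between steps differed between lines as well. On target plates initiation factors held 1.36 to 1.47% of all counts in leukemia wells, 1.22 to 1.40% in T wells and 1.13 to 1.18% in HPC wells, with HPC below every plate of the other lines. Elongation factors held 1.01 to 1.22%, 0.837 to 1.03% and 1.05 to 1.17%. HPC again had the lowest initiation share in random wells, at 1.06 to 1.13% against 1.32 to 1.41% in leukemia and 1.34 to 1.38% in T wells. Its elongation share there was 1.22 to 1.31%, against 1.15 to 1.23% in leukemia wells, which overlapped it, and 0.976 to 1.02% in T wells.

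**Figure D1:**
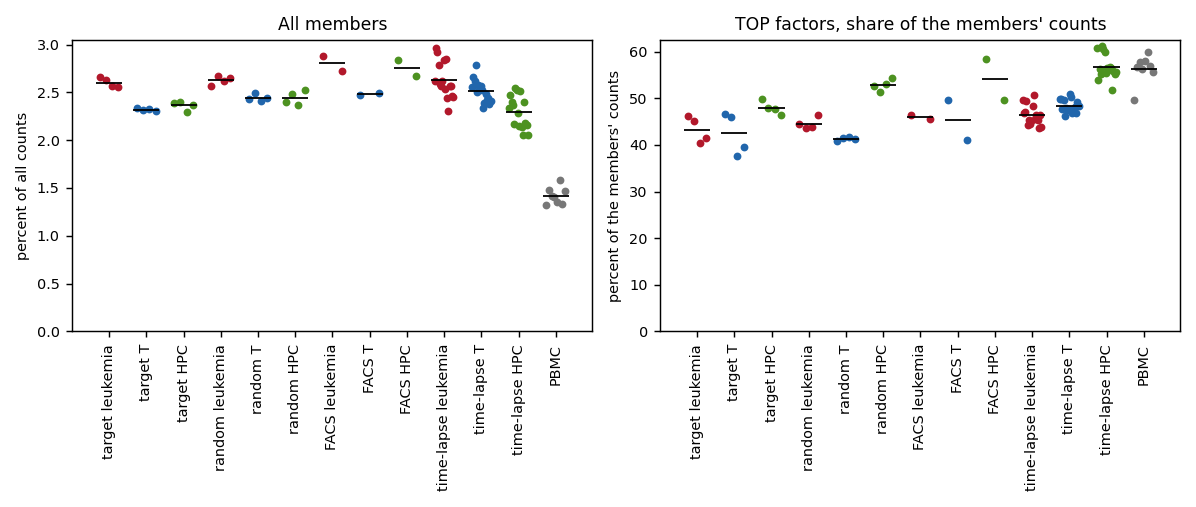
Left, the summed counts of the 64 members as a percent of all counts, and right, the counts of the 9 TOP factors as a percent of the members' counts, for each plate (points) of each kind of plate and line class, with the mean as a bar. PBMC plates lie lowest on the left, at 1.32 to 1.58%, and beside time-lapse HPC plates on the right.

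Few members differed between the lines by the rule used for all genes: at least 2-fold in the mean of within-plate differences in log2(CPM + 1), the same direction on every plate, and at least 10 CPM in 1 line. In T against leukemia wells 4 of the 59 members tested met it (1 higher, 3 lower), where 27% of 8263 genes did. In HPC against leukemia wells 8 of 59 did (2 higher, 6 lower), where 25.8% of 8276 genes did, and in HPC against T wells 4 of 59 (1 higher, 3 lower), where 28.5% of 8452 genes did. Leaving out plate 3, or scaling by median-of-ratios, took the HPC against leukemia count to 4 (that scaling left Eif2s2, Eif3i, Eif3j1 and Eif3j2 short of 2-fold), and a pseudocount of 10 CPM took the HPC against T count to 1. The members' median differences were -0.15, -0.18 and 0.04, against 0.01, -0.12 and -0.12 over all genes tested. The 5 members left out were under 10 CPM in every line: Eef1a2, Eif2s3y, Eif4e1b, Eif5a2 and a readthrough row of Eef1akmt4 and Ece2. In each line 48 members had at least 50 CPM, and the other genes were not matched to the members by level. The lower share of calls therefore does not set the members apart from genes of like level.

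The elongation factors were the most abundant members and none of the 5 most abundant reached 2-fold between lines. A count is 1 molecule caught at its poly(A) end, so CPM can be set side by side between genes without a length correction. Eef1a1, which encodes eEF1A, stood first by mean CPM over the 3 lines. Its levels on target plates 1 to 4 were 4287, 3864, 2949 and 3404 CPM in leukemia wells, 4225, 4005, 2597 and 2937 in T wells and 4695, 4439, 3915 and 4061 in HPC wells. The ranges overlapped, and 90.5% of its positive values were not whole numbers, so its level is uncertain where near-identical copies share molecules. In random wells HPC stood apart, with 5402, 5344, 5184 and 5825 CPM against 3446 to 3731 in T and 3794 to 4399.9 in leukemia wells, a difference below 2-fold.

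Eef2, which encodes the translocase eEF2, had 2068, 1969, 1946 and 1729 CPM in leukemia, 1945, 1877, 1603 and 1534.7 in T and 1833, 1759.8, 1714 and 1851 in HPC wells, with overlap between neighbours. Eef1b2, the exchange factor subunit of eEF1B, was highest in leukemia wells (2140.3, 2079, 1784 and 1768 CPM), followed by HPC (1547, 1546, 1497.96 and 1436.6) and T wells (1290.1, 1308.2, 1111.2 and 1101.4), with no overlap between the 3 lines. Eef1g, the gamma subunit, had 1547, 1587, 1315.9 and 1444.9 CPM in leukemia and 1329.4, 1457.2, 1356.1 and 1387.9 in T wells, which overlapped, and more in HPC wells, at 1817, 1669, 1685 and 1641.

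Eif5a, which encodes the hypusine-bearing factor eIF5A, had 1654, 1575, 1623 and 1832 CPM in leukemia, 1115.1, 1056.1, 1241.2 and 1421.2 in T and 1491.8, 1468.6, 1377.8 and 1683 in HPC wells. Its paralog Eif5a2 was found almost only in leukemia wells. It had 32 counts in 20.6% of leukemia target wells (7.51 CPM, 95% Poisson interval 5.14 to 10.6), 0 counts in the 120 T wells, where 3 counts would be 0.627 CPM, and 1 count in 73 HPC wells. Against T wells this is at least 11.99-fold higher. The 1 count under the HPC label lay on plate 4, in a well classed to another line. Target wells of HPC class had 0 CPM of Eif5a2. In random wells it had 38 counts in leukemia, 0 in T and 0 in HPC wells, and in time-lapse wells 99, 3 and 0. The muscle and brain paralog of Eef1a1, Eef1a2, had 23 counts in the 1836 cell line wells, all of them in 17 time-lapse T wells.

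The regulators of elongation gave one of the clearest line differences. Eef2k, the kinase that inhibits eEF2, had 19.4, 13.5, 11.1 and 12.3 CPM on target plates 1 to 4 in leukemia wells, 43.8, 48.8, 16.2 and 21.9 in T wells and 60.96, 71.8, 56.4 and 43.8 in HPC wells. HPC lay above leukemia on every plate, by 1.98 (1.60 to 2.32) log2 units (mean, with the lowest and highest plate in parentheses here and below). T lay above leukemia by 1.05 (0.502 to 1.77), a value that was 0.81 without plate 2, and T plates 3 and 4 lay closest to leukemia. In random wells the order was the same, with 20.7, 15.6, 14.9 and 13.6 CPM in leukemia, 41.6, 39.6, 28.5 and 35.99 in T and 72.1, 75.4, 83.7 and 85.7 in HPC wells, without overlap.

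Eef1akmt2, a lysine methyltransferase of eEF1A, was lower in HPC (20.3, 16.9, 7.28 and 19.6 CPM) than in T wells (47.3, 30.3, 26.96 and 33.2), a difference of -1.12 (-1.76 to -0.73). Without plate 3 the difference was -0.90. The remaining regulators, Eef2kmt, Eef1akmt1, Eef1akmt4 and Eef1e1, did not meet the rule on target plates. Eef2kmt, which methylates eEF2, missed it narrowly, at 0.99 in T against leukemia wells and -0.97 in HPC against T wells.

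**Figure D2:**
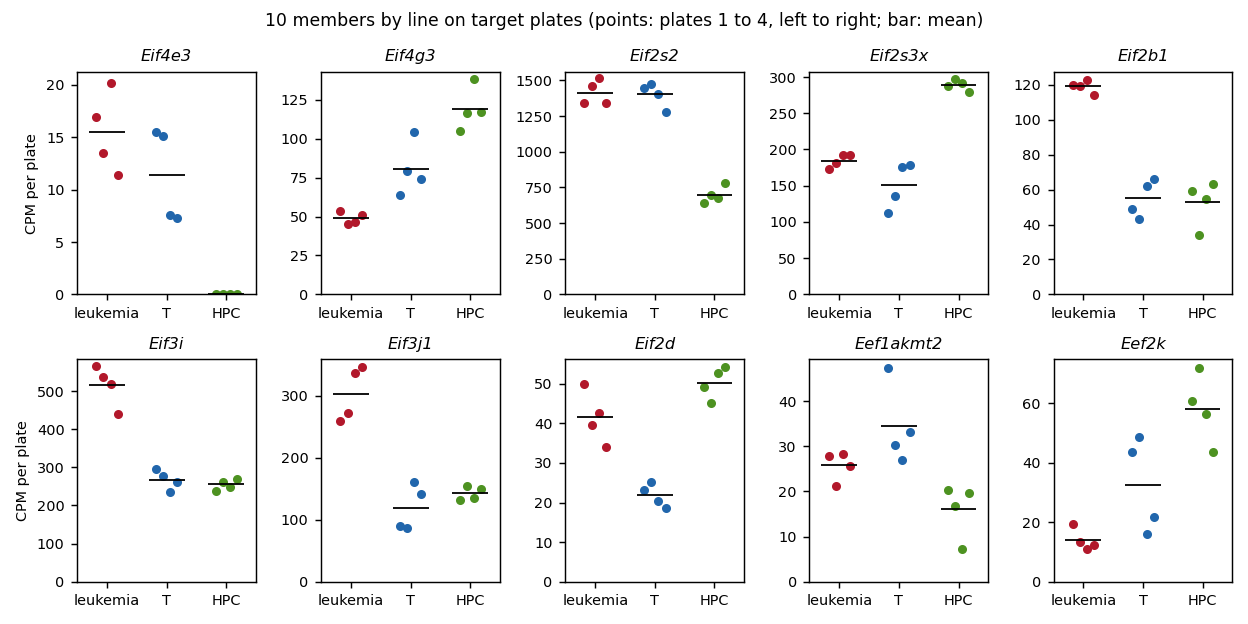
CPM of 10 members by line on target plates, each panel on its own linear axis from 0, with points for plates 1 to 4 from left to right and the mean as a bar. Eif2s2 in HPC wells (640.1 to 781.06 CPM) lies below every plate of the other lines, and Eif4e3 is at 0 on all 4 HPC plates.

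The eIF2 subunits did not move together. Eif2s2, which encodes eIF2 beta, had 1340.8, 1460.2, 1514.9 and 1343.7 CPM in leukemia and 1448.5, 1471.7, 1406.7 and 1278.1 in T wells, which overlapped, against 640.1, 697.5, 678.5 and 781.1 in HPC wells. The HPC difference was -1.02 (-1.16 to -0.78) against leukemia and -1.003 (-1.18 to -0.71) against T, just past 2-fold, and leaving out plate 3 took it to -0.97 and -0.99 (the call against T was also lost without plate 1 or 2). These values go by label, and 3 of the 18 HPC wells on plate 4 were of another class. In target wells of HPC class the mean of Eif2s2 was 668.5 CPM, against 699.3 CPM by label. Eif2s1, the alpha subunit whose phosphorylation slows initiation, was highest in T wells, at 250.04, 242.97, 387.7 and 367.9 CPM, against 185.1 to 243.2 in leukemia and 179.5 to 218.2 in HPC wells, and T overlapped leukemia only by plate 2.

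The gamma subunit has a copy on X, Eif2s3x, which in mice is known to escape X inactivation, and a copy on Y, Eif2s3y. Their annotated starts are printed above. Eif2s3x had 287.9, 297.7, 291.95 and 279.3 CPM in HPC wells, against 172.4, 180.9, 192.6 and 192.4 in leukemia and 112.99, 136.2, 175.8 and 178.5 in T wells. HPC lay above the others on every plate, by 0.65 (0.54 to 0.74) and 0.96 (0.64 to 1.34), short of 2-fold in the mean. Xist, the RNA of the inactive X, was also highest in HPC wells: 299.7, 279.4, 381.99 and 202.3 CPM on target plates 1 to 4. It had no more than 5.04 CPM on any target plate of the other lines. On random plates HPC lay above leukemia for both genes. On FACS plate 1, by class, Xist had 314.6 CPM in HPC and 0 in leukemia wells, while Eif2s3x had 179.4 and 198.9. On FACS plate 2 Xist had 158.8 and 0 CPM, and Eif2s3x 288.5 and 148.1. The part of Xist in the Eif2s3x difference was not tested. Eif2s3y had 0 counts in all 1836 cell line wells and in the PBMC wells, where 3 counts would be 0.0400 and 3.78 CPM. The other Y genes Ddx3y, Kdm5d and Uty had 5, 1 and 0.5 counts in the cell line table and 0 in PBMC.

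Among the 5 eIF2B subunits, Eif2b1, the alpha subunit, met the rule. Leukemia wells had 119.8, 119.5, 122.9 and 114.2 CPM, T wells 48.98, 42.9, 62.005 and 66.02 and HPC wells 59.3, 33.8, 54.6 and 63.4. Leukemia lay above the other lines on every plate, and the differences from leukemia were -1.12 (-1.46 to -0.78) for T and -1.20 (-1.79 to -0.84) for HPC. Without plate 2 the HPC value came to just under 2-fold. Eif2b2 to Eif2b5 ranged from 18.2 to 106.3 CPM and did not meet the rule on target plates. Eif2d, which can place initiator tRNA without eIF2 and also recycles ribosomes, was lowest in T wells, at 23.2, 25.2, 20.5 and 18.6 CPM, against 34.1 to 49.9 in leukemia and 45.04 to 54.4 in HPC wells, a difference of 1.17 (0.81 to 1.499) for HPC against T.

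Of the 14 eIF3 rows, Eif3i and the pair Eif3j1 and Eif3j2 met the rule, all with the highest level in leukemia wells. Eif3i, which encodes a WD-repeat subunit, had 566.2, 537.5, 518.8 and 439.3 CPM in leukemia, 295.1, 277.03, 234.5 and 262.4 in T and 238.8, 261.8, 249.2 and 270.3 in HPC wells. Its HPC difference from leukemia, -1.01 (-1.24 to -0.70), was at the threshold and fell short without plate 1, 2 or 3 (-0.93 without plate 1), and its T difference was -0.94.

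Eif3j1, which encodes the loosely bound subunit eIF3j, had 258.7, 271.4, 335.9 and 345.5 CPM in leukemia, 89.4, 86.5, 160.1 and 141.4 in T and 131.9, 154.3, 134.6 and 149.5 in HPC wells. Its differences from leukemia were -1.38 (-1.64 to -1.06) in T and -1.07 (-1.31 to -0.81) in HPC wells, the latter -0.99 without plate 3. In target wells of HPC class its mean was 135.7 CPM, against 142.6 CPM by label. Eif3j2 is a near copy: 90.8% of its transcript's 50-base windows also occur in Eif3j1 transcripts (GENCODE vM21), and the 2 rows held the same value, within 1e-06, in 1704 of 1836 cell line wells and in every PBMC well. How molecules were divided between the copies is uncertain, so they are 1 uncertain measurement held in 2 rows, and the counts of members called hold it as 2 members.

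The other eIF3 rows differed by less than 2-fold in the mean. Eif3a, the largest subunit, was the most abundant at 1113.9 to 1450.2 CPM in leukemia, 695.98 to 1263.3 in T and 877.5 to 1132.3 in HPC wells. Eif3c, the core subunit beside it, was highest in T wells at 936.8, 984.5, 523.3 and 506.9 CPM, against 428.02 to 484.3 in leukemia and 412.2 to 494.1 in HPC wells. Plates 1 and 2 of the T line were almost 2-fold above plates 3 and 4 for Eif3c. The remaining 9 rows (Eif3b, Eif3d to Eif3h and Eif3k to Eif3m) ranged from 154.6 CPM for Eif3m to 553.9 CPM for Eif3f over lines and plates. 

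Within eIF4F the lines differed in several paralogs. In the cap-binding family Eif4e3, an atypical cap-binding paralog, had 16.9, 13.5, 20.2 and 11.4 CPM in leukemia and 15.5, 15.1, 7.55 and 7.30 in T wells, and 0 on all 4 HPC plates. These are 66 counts in 38.1% of leukemia wells and 54 counts in 33.3% of T wells, against 0 counts in 73 HPC wells, where 3 counts would be 1.19 CPM. The level was at least 12.98-fold higher in leukemia and at least 9.45-fold higher in T wells than in HPC wells. Random wells gave the same picture, with 47 and 91 counts in leukemia and T wells and 0 in HPC wells.

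Eif4e, which encodes the main cap-binding protein, held 51.9% of the family's counts in leukemia, 60.1% in T and 46.7% in HPC wells. Eif4e2, which encodes the translational repressor 4EHP, held 43.9%, 37.3% and 53.3%. The plate ranges of the Eif4e share were 50.4 to 53.8%, 55.4 to 61.9% and 44.4 to 49.1%, without overlap. Eif4e had 170.3, 177.1, 227.03 and 195.7 CPM in leukemia, 206.4, 184.96, 336.7 and 305.9 in T and 165.1, 167.5, 129.2 and 149.5 in HPC wells, so its levels overlapped between lines where its shares did not. Eif4e2 had 129.3, 150.95, 191.1 and 181.5 CPM in leukemia, 126.3, 133.7, 200.03 and 181.8 in T and 171.02, 180.2, 161.9 and 186.5 in HPC wells, also overlapping.

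Eif4g3, which encodes the scaffold also named eIF4GII, was highest in HPC wells on target plates. It had 53.7, 45.5, 46.5 and 51.2 CPM in leukemia, 64.01, 79.03, 104.1 and 74.3 in T and 104.98, 116.8, 138.2 and 117.01 in HPC wells. The 3 lines did not overlap, and HPC exceeded leukemia by 1.26 (0.96 to 1.55). Its share of the family's counts was 5.19% (95% interval 4.52 to 5.91%) in leukemia, 8.19% (95% interval 7.42 to 9.02%) in T and 10.4% (95% interval 9.25 to 11.5%) in HPC wells, and these intervals cover counting error only. Eif4g1, the main scaffold, held 32.3%, 30.1% and 28.2%, and Eif4g2, whose protein (DAP5) lacks the eIF4E site, held 62.5%, 61.7% and 61.4%. Both shares differed less between lines than that of Eif4g3. Eif4g1 had 287.4, 312.1, 309.8 and 323.7 CPM in leukemia, 220.8, 200.1, 373.1 and 360.9 in T and 286.2, 311.1, 326.5 and 368.4 in HPC wells. Eif4g2 had 609.8, 548.7, 595.6 and 619.7, 527.996, 519.2, 573.1 and 713.9 and 700.2, 705.2, 712.1 and 701.3 CPM in the same order. The order of HPC above T for Eif4g3 did not hold on all kinds of plates. On FACS plates HPC (110.9 and 82.1 CPM) and T wells (78.7 and 82.4 CPM) overlapped. On time-lapse plates the mean was 131.8 CPM in T and 119.3 CPM in HPC wells.

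The helicase was mostly Eif4a1 in every line. Eif4a1 had 717.7, 673.5, 696.3 and 741.6 CPM in leukemia, 545.6, 493.7, 754.3 and 761.3 in T and 805.99, 743.2, 652.1 and 686.95 in HPC wells. Eif4a2, its paralog, had 164.4, 193.5, 136.02 and 179.1 CPM in leukemia, 109.1, 106.7, 95.97 and 115.9 in T and 121.1, 116.1, 123.7 and 142.7 in HPC wells. Its share of the pair was 19.2% in leukemia (plates 16.3 to 22.3%), 14.4% in T (11.3 to 17.8%) and 14.8% in HPC wells (13.1 to 17.2%), so neighbouring lines overlapped in this share. The helicase cofactor Eif4h had 513.2 to 532.4 CPM in leukemia, 377.2 to 433.3 in HPC and 292.6 to 374.7 in T wells, and the 3 lines did not overlap.

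Of the eIF4E inhibitors Eif4ebp1, a target of mTOR whose gene is known to be induced by ATF4, was the main one, with 82.3% of the family's counts in leukemia, 81.8% in T and 77.9% in HPC wells. Its levels were 191.004, 215.3, 131.5 and 132.7 CPM in leukemia, 212.2, 240.5, 87.3 and 62.4 in T and 107.5, 109.1, 108.2 and 92.1 in HPC wells, so the T plates alone spanned the levels of both other lines. Eif4ebp2 had 11.8, 10.6, 7.08 and 11.4 CPM in leukemia, 8.59, 11.8, 17.3 and 6.64 in T and 15.2, 5.63, 7.28 and 9.06 in HPC wells. Eif4ebp3 had 25.4, 24.7, 22.2 and 31.3 CPM in leukemia, 24.9, 28.6, 22.6 and 15.9 in T and 20.3, 19.7, 18.2 and 22.6 in HPC wells, with all 3 lines overlapping.

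None of the genes of start site selection and subunit joining met the rule on target plates. Eif1, which guards start codon choice, had 924.2, 901.8, 858.1 and 875.7 CPM in leukemia, 1196.05, 1208.4, 998.004 and 990.8 in T and 861.9, 829.8, 886.8 and 874.2 in HPC wells, and held 94 to 95.3% of the counts it shares with Eif1b. Eif1b had 60.4, 57.1, 59.7 and 50.2 CPM in leukemia, 48.1, 57.2, 58.2 and 55.1 in T and 50.8, 54.9, 45.5 and 34.7 in HPC wells. The factor eIF1A, which works beside eIF1, is encoded by Eif1a and the X-linked Eif1ax, and Eif1ax held 62.7 to 66.2% of their counts. Eif1ax had 261.996, 284.97, 279.1 and 297.4 CPM in leukemia, 205.8, 221.1, 257.2 and 310.02 in T and 190.8, 212.6, 190.997 and 202.3 in HPC wells, so unlike the other X-linked member, Eif2s3x, it was not highest in HPC wells on these plates. Eif1a had 138.4, 179.2, 190.2 and 148.2, 101.05, 114.7, 148.6 and 149.7 and 113.4, 135.3, 115.3 and 109.3 CPM in the same order. Eif5, the GTPase activator of eIF2, was highest in T wells at 604.04, 590.6, 868.6 and 722.9 CPM against 434.8 to 519.3 in leukemia and 336.1 to 469.3 in HPC wells. Eif5b, which joins the ribosomal subunits, had 529.3 to 912.9 CPM over lines and plates, and Eif6, which keeps them apart, had 140.06 to 267.4 CPM.

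The members not yet named differed by less than 2-fold in the mean between lines on target plates. Eif4b, which stimulates the eIF4A helicase, had 364.4 to 539.4 CPM over lines and plates, and Eef1d, the delta subunit of eEF1B, 324.7 to 485.1. Eif4a3, a helicase of the exon junction complex and not of eIF4F, had 117.3 to 253.02 CPM, with both ends of that range in T wells. Lower down were Eif1ad at 68.2 to 118.2, Eif2a at 50.9 to 107.2 and Eif4enif1, whose protein carries eIF4E into the nucleus, at 30.1 to 71.1 CPM. Among the regulators named above, Eef1e1 had 44.5 to 102.4, Eef1akmt4 24.9 to 42.3, Eef1akmt1 16.2 to 53.1 and Eef2kmt 14.6 to 56.7 CPM. The oocyte paralog Eif4e1b had 0 counts on target plates.

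Part of the line differences recurred on plates not used for these calls. Of the 8 members called in HPC against leukemia wells on target plates, 7 were called in the same direction in random wells, 6 in FACS and 7 in time-lapse wells, and 5 in all 4: Eef2k, Eif2b1, Eif3j1, Eif3j2 and Eif4g3. Of the 4 called in T against leukemia wells, 3, 4 and 2 were called again, with Eif3j1 and Eif3j2 in all 4. Of the 4 called in HPC against T wells, 4, 2 and 1 were called again, and none in all 4. How many of all genes called on target plates were called again is not given, so these counts do not set the members apart. FACS wells were counted by class. Grouped by their labels, 0 of 57 or 58 members were called in each contrast, where 1.33%, 1.89% and 1.84% of all genes were (higher in the first line 0.666%, 0.834% and 0.82%).

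Counting every member called on these plates, whether or not it was called on target plates, the share lay below that of all genes in each contrast. Genes were not matched by level here either. In random wells 7 of 60, 9 of 60 and 11 of 59 were called (T against leukemia, HPC against leukemia, HPC against T), where 27.7%, 27.8% and 31.6% of all genes were. In FACS wells by class 8 of 59, 9 of 59 and 6 of 57 were called, where 28.8%, 28.8% and 32.1% were. In time-lapse wells 8 of 57, 12 of 58 and 11 of 58 were called, where 26.3%, 26.5% and 29.8% were. Of the time-lapse calls for HPC, 10 of 12 against leukemia and 11 of 11 against T were lower in HPC, among them Eif2s2 (-1.53 and -1.46), Eif2b3 (-2.13 and -2.505) and Eif4e (-1.40 and -1.33). On the base of members tested these lower calls were 10 of 58 and 11 of 58, where 12.6% and 16.3% of all genes tested were called lower. Of all genes tested, 13.9% and 13.4% were called higher in HPC.

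**Figure D3:**
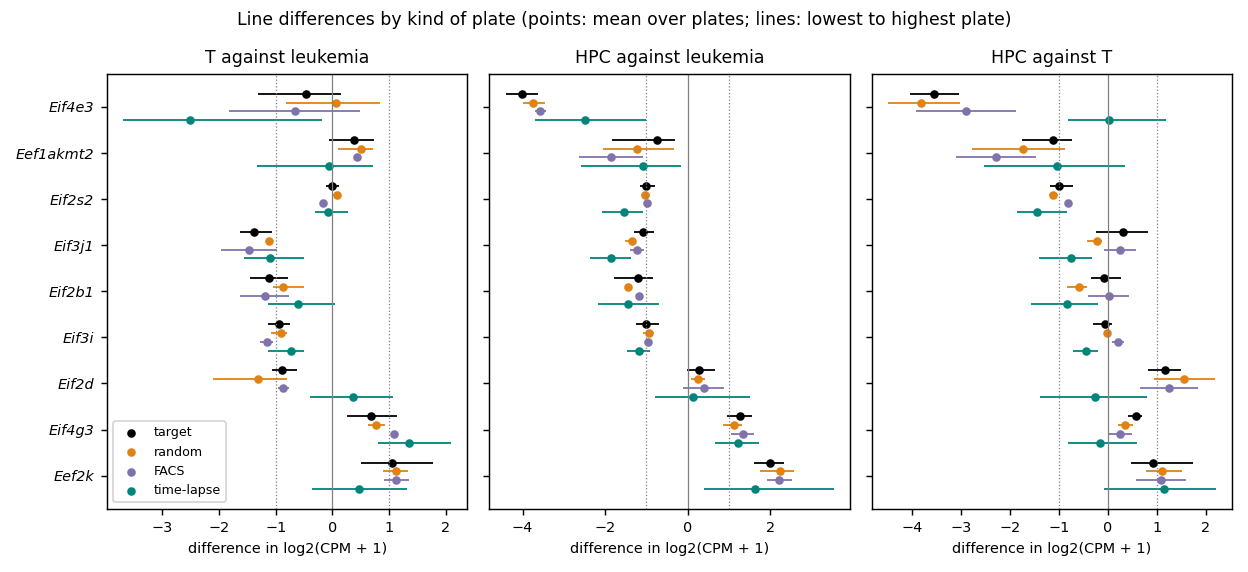
Differences in log2(CPM + 1) between lines for 9 members on target, random, FACS (by class) and time-lapse plates, as the mean over plates (points) and the lowest to highest plate (lines), with dotted lines at 2-fold. Eef2k and Eif4g3 lie above 0 and Eif2b1, Eif3j1 and Eif2s2 below 0 in HPC against leukemia wells on all 4 kinds of plates, and Eif4e3 is near 0 in HPC against T wells on time-lapse plates only.

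Time-lapse wells differed from random wells most in the T class. There 5 of 58 members were called, where 19.7% of 8183 genes were, against 1 of 60 in the leukemia class (1.95% of 7712 genes) and 1 of 58 in the HPC class (12.2% of 8356 genes). No plate holds both kinds of wells, so plate and imaging cannot be told apart, and the T classes of the 2 kinds came from different clusters with the marker values given above, whose part in these differences was not tested. For a call, 85% or more of the time-lapse plates had to lie beyond the whole range of random plates.

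Eif4e3 showed the largest of these differences. In T wells it had 7.14, 18.8, 10.2 and 21.5 CPM on the random plates, and 1 count on all 16 time-lapse plates (0.0513 CPM, interval 0.0013 to 0.286). In leukemia wells it had 13.4, 10.1, 14.9 and 12.2 CPM on random plates and 1.0004 to 11.9 (median 5.72) on time-lapse plates, a difference of -1.19 whose call was lost with a pseudocount of 10 CPM. Eif4h, the helicase cofactor, had 463.3, 426.2, 403.2 and 424.4 CPM in random and 114.9 to 207.1 (median 176.9) in time-lapse T wells, a difference of -1.31, while its leukemia and HPC differences were -0.17 and -0.16.

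In the T class Eif3b, a core eIF3 subunit, had 358.6, 386.05, 351.6 and 381.4 CPM in random and 137.2 to 197.02 (median 159.1) in time-lapse wells, and Eif1b 80.9, 75.9, 67.3 and 66.98 and 17.1 to 58.2 (median 27.2). Neither range overlapped. Eif2d was the 1 member called higher (9.53% of all genes were), with 10.7, 20.1, 18.3 and 21.6 CPM in random and 18.96 to 49.1 (median 38.8) in time-lapse T wells, a difference of 1.02 that was 0.81 without random plate 1. In the HPC class Eef1e1, a scaffold protein of the tRNA synthetase complex, had 48.4, 72.5, 39.99 and 65.9 CPM in random and 7.01 to 36.8 (median 21.7) in time-lapse wells. Between target and FACS wells of 1 class no member was called, of 60, 59 and 57 tested in the leukemia, T and HPC classes, where 1.59%, 2.08% and 5.8% of all genes were.

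PBMC had a smaller share of factor counts and a different mix. Of the 58 members with at least 10 CPM in the mean of the 3 lines on target plates, 37 were in PBMC under 50% of that line mean, 7 were above it, and the median was 42.2%. This choice by line level itself favours lower values in PBMC, and Eif4e3 (8.96 CPM in the lines, 17.6 in PBMC) was left out by it. The same values over all genes are not given, so these counts do not set the members apart from other genes. The 9 TOP factors had a median of 62.6% and the other 49 members 37.4%. Against the line mean on time-lapse plates, which like the PBMC plates were filled after imaging, 31 of the 58 were under 50%, 6 were above it, and the medians were 48.8% for all, 59.6% for the TOP factors and 42.98% for the others. TOP factors made up 49.7 to 59.9% of the members' counts on PBMC plates, against 40.4 to 46.1% in leukemia, 37.7 to 46.6% in T and 46.5 to 49.8% in HPC wells on target plates. Time-lapse HPC plates reached 51.9 to 61.2%, so this share did not set PBMC apart from all line classes.

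**Figure D4:**
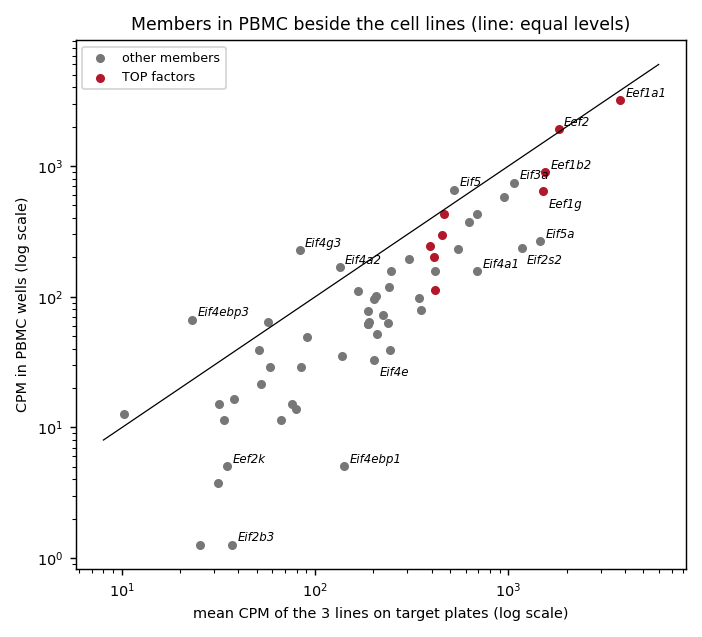
Each member's CPM in PBMC wells against its mean CPM in the 3 lines on target plates, both on log axes, for the members with at least 10 CPM in the lines and a count in PBMC, with TOP factors in red and equal levels as a line. Eef2 and Eef1a1 lie near the line, Eif4g3, Eif4ebp3 and Eif5 above it, and Eif5a, Eif4a1 and Eif4ebp1 well below it.

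Eef2 was at 1911 CPM in PBMC, against a line mean of 1819 on target and 2024 on time-lapse plates. Eef1a1 was at 3198 CPM, against 3782 on target and 5064 on time-lapse plates, of which PBMC had 63.2%. The line means that follow are those of target plates. Eif5a was at 266.4 CPM against 1461.6, 18.2% of the line mean, Eif2s2 at 238.04 against 1171.8, and Eif4a1 at 156.2 against 689.4. Eif4ebp1 had 4 counts in all PBMC wells, 5.04 CPM against 140.8 in the lines. These comparisons set blood cells beside cultured lines in separate tables with a gap in depth, and give no test.

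Several minor paralogs took larger shares in PBMC than in the lines, some of them with overlap between plates. Eif4a2 held 51.8% (95% interval 45.5 to 58.004%) of the Eif4a1 and Eif4a2 counts, against 14.4 to 19.2% in the lines on target plates and 15.7 to 23.7% on time-lapse plates. The 8 PBMC plates ran from 33.3 to 68%, and the highest time-lapse plate, of the HPC class, reached 36.5%. Eif4g3 held 28.5% (95% interval 25.03 to 32.2%) of its family, with 300.01, 293.9, 240.5, 199.7, 301.2, 198.6, 193.03 and 141.3 CPM on plates 1 to 8. The highest target plate of any line had 138.2 CPM, but time-lapse plates reached 205.5 CPM in the T class and 174.8 CPM in the HPC class, within the PBMC range. The Eif4g3 share was 21.4 to 36.9% on PBMC plates and 11.9 to 26.1% on time-lapse T plates, which overlapped too. Among the eIF4E inhibitors Eif4ebp3 held 79.1% (95% interval 67.4 to 88.1%), with 53 of 67 counts, and Eif4ebp1 5.97%. On single PBMC plates the Eif4ebp3 share was 50 to 87.5%, and the highest time-lapse plate of any line class had 43.6%. Eif4e held 20.4% of the cap-binding counts and Eif4e2 held 68.6% (95% interval 59.96 to 76.6%). The Eif4e2 share was much the same in time-lapse HPC wells, at 66.7%, where Eif4e held 33.2%.

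**Figure D5:**
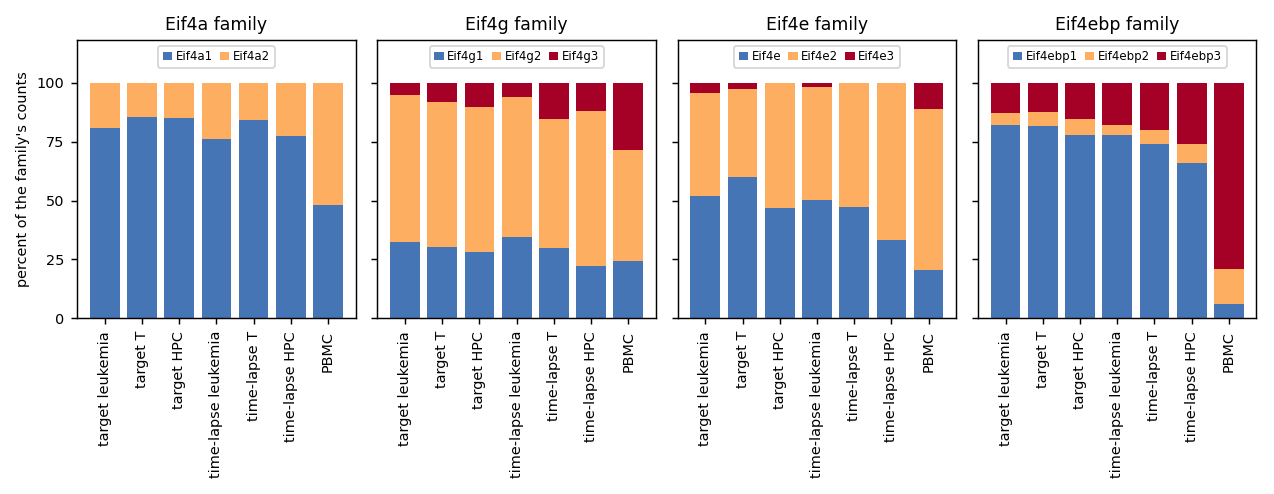
Share of each paralog in its family's counts, as stacked bars that add to 100% for each group, for the 3 lines on target plates and after time-lapse imaging and for PBMC. Eif4a2, Eif4g3 and Eif4ebp3 take larger shares in PBMC than in any line group shown, Eif4e2 is about as large in time-lapse HPC wells as in PBMC, and Eif4e3 is visible in leukemia and target T wells and in PBMC but not in HPC wells.

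PBMC clusters made without the members gave 70 T-like, 88 B-like and 31 NK-like wells. A further 150 wells stayed unnamed, since the leading genes of 2 clusters were of other cell types (S100a8 and S100a9, or the airway genes Scgb1a1 and Sftpc), although 5 and 8 of 12 T cell markers were raised in them, an exception made after the data were seen, and 1 cluster lacked markers. The T-like cluster had 9 of the 12 T cell markers raised and none among its 10 leading genes. Members held 1.36% of counts in T-like, 1.55% in B-like and 1.3% in NK-like wells. By 2-fold and at least 30 counts over both classes, 4 of 29 members were called between B-like and T-like wells (27.3% of all genes with enough counts; 2 members without plate 5), 3 of 22 between NK-like and T-like wells (26.2%) and 2 of 23 between NK-like and B-like wells (29.9%).

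Each PBMC class difference rests on few counts. Eif2s2 had 401.3 CPM (71 counts, interval 313.4 to 506.1) in B-like, 346.3 CPM (18 counts, interval 205.2 to 547.3) in NK-like and 150.5 CPM (26 counts, interval 98.3 to 220.5) in T-like wells, with a B-like to T-like ratio of 2.66-fold (95% interval 1.68 to 4.36). Eif3g had 214.8 CPM (38 counts, interval 151.98 to 294.8) in B-like and 57.9 CPM (10 counts, interval 27.8 to 106.4) in T-like wells, 3.67-fold (95% interval 1.81 to 8.35), and Eif5a was at 2.12-fold (95% interval 1.40 to 3.29). Eif3l was at 2.25-fold (95% interval 1.0005 to 5.65). NK-like wells had less Eif5b than T-like wells, with a ratio of 0.498-fold (95% interval 0.254 to 0.895), and than B-like wells, at 0.453-fold (95% interval 0.232 to 0.809). Eef1b2 in NK-like against T-like wells was at 0.487-fold (95% interval 0.318 to 0.721) and Eif5a in NK-like against B-like wells at 0.461-fold (95% interval 0.212 to 0.894).

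Other genes of the pathway were described from lists of eIF2 kinases and phosphatase, release and recycling factors, cap and poly(A) regulators, eIF5A hypusination and mitochondrial translation. Of the 8 kinase and phosphatase genes, 3 were called in T against leukemia wells on target plates, where 27% of all genes were: Eif2ak2, the interferon-induced kinase PKR, higher by 1.94, Eif2ak3, the ER stress kinase PERK, higher by 1.18, and Eif2ak1, the heme-regulated kinase HRI, lower (-1.23). In HPC against T wells Eif2ak1 was higher by 1.08 and Eif2ak3 lower (-1.80), and in HPC against leukemia wells 0 of 8 were called. Release and recycling gave 0 of 7 tested and hypusination 0 of 2 in all 3 contrasts. Over all 5 lists 3 of 38 genes tested were called in T against leukemia (27% of all genes), 1 of 36 in HPC against leukemia (25.8%) and 7 of 38 in HPC against T wells (28.5%).

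Of 13 cap and poly(A) regulators tested, Dhx29, a helicase for structured leaders, was lower in HPC wells against leukemia (-2.04) and T (-1.77). Pdcd4, an inhibitor of eIF4A, and Mknk1, an eIF4E kinase, were higher in HPC than in T wells, by 1.69 and 1.16, and 0 were called in T against leukemia wells. Of the mitochondrial factors Gfm1 (-1.06) and Mtrf1 (-1.13) were called lower in HPC than in T wells, of 8 tested. In time-lapse against random wells 6 of 38 genes of these lists were called in the T class (19.7% of all genes), 4 of 37 in the HPC class (12.2%) and 0 of 37 in the leukemia class (1.95%). In the T class Impact, which restrains the eIF2 kinase GCN2 (2.14), Pdcd4 (2.47) and Mknk1 (1.08) were higher. The recycling factor Abce1 (-1.27), the hypusination enzyme Dhps (-1.02) and Mtrf1 (-1.85) were lower there. In the HPC class Impact (1.30) and Eif2ak3 (1.62) were higher, and Larp1, which binds TOP mRNAs (-1.18), and Tsfm, a mitochondrial elongation factor (-1.42), were lower.

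Across single wells the TOP factors followed the ribosomal protein genes and the other members ran the other way. With Rn45s left out of the total, the summed share of the 9 TOP factors correlated with that of 85 ribosomal protein genes at Pearson's r of 0.67 in leukemia, 0.79 in T (n = 120) and 0.83 in HPC wells (n = 73) of the target plates (Spearman's rho 0.60, 0.79 and 0.88). The other 55 members gave -0.35, -0.52 and -0.51 (rho -0.28, -0.52 and -0.42). Both shares come from the same wells and the same total, so a larger ribosomal protein share leaves less for other genes. Wells of all target plates were pooled, and wells of 1 plate share a library preparation. Differences between plates were not taken out, and the values are a description.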

How the data were processed

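The deposited values are expected counts, barcoded molecules per gene and well that the authors did not scale. Positive values were fractional in 5.31% (lines) and 5.15% (PBMC) of cases. Reads were aligned with STAR to mm10 after bcl2fastq, per the submitters' processing notes. The sources used here give no versions, counter or annotation. The members, lists and tests were chosen with earlier results of these data known.

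Counts were summed per plate and line (at least 5 wells), scaled to 1e+06 per sum (CPM), and differences in log2(CPM + 1) were taken within plates. Since each group is 1 sample, no count model or test was run. Classes came from Leiden clusters (scanpy 1.11.5, igraph 0.11.9) made without the members, with 2000 variable genes, 30 principal components, 15 neighbours, resolution 0.3 (lines) or 1 (PBMC) and seed 1. A PBMC name needed 3 markers. Intervals are exact 95% Poisson or Clopper-Pearson intervals for counting error only, and a fold against 0 used a floor of 3 counts over the group. Members were named where called, in a paralog family, or among the 5 most abundant, and the rest were given by range. A simulation drew counts around the leukemia target profile for the leukemia target wells, part of them relabelled as T. Only genes above a minimum level were changed. Over 24781 genes, 100 of 100 genes changed 3-fold and 99 of 100 changed 4-fold were recovered, and 42 of 7318 unchanged genes were called. The simulation held no T wells and no spread between plates, so these rates do not carry over to the real contrasts. Alternatives were another scaling, pseudocount, threshold or way of averaging, Rn45s left out, and each plate left out in turn. Further ones were no filter on low values, classes by the most similar target profile, and target wells of another class left out. Scripts ran on scipy 1.17.1, pandas 2.3.3 and numpy 2.4.6 under python 3.11.15.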

Additional observations from a re-analysis of the deposited data

Results flagged for a closer look

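Among the groups of plates looked at, 1 (0.98%) held a plate apart from the others, where chance alone would set about 5% of groups apart: Eif4ebp1 in HPC target wells stood at 107.5, 109.1, 108.2 and 92.1 CPM on plates 1 to 4, with plate 4 (92.1 CPM) the lowest. The rule looks for 1 plate apart from the rest of its group. It cannot find several plates that differ together from the others, as T target plates did (see other observations). The low share therefore does not show that plates were alike.

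A few members differed between lines in opposite directions on different kinds of plates, each on every plate of its kind. The difference between the kinds of plates was not tested, and the sizes are log2 differences of CPM + 1. Eef1d, a subunit of eEF1B, was at 0.13 in T against leukemia wells on random plates and -0.14 on FACS plates. Eif4ebp3 was at -0.34 in HPC against leukemia wells on target plates, 0.47 on random and 0.68 on FACS plates. For HPC against T wells Eif4h was at 0.25 on target, 0.16 on FACS and 0.87 on time-lapse plates and -0.28 on random plates. Eif3g was at 0.30 on FACS, -0.24 on random and -1.08 on time-lapse plates. Eef1akmt4, a methyltransferase of eEF1A, was at 1.14 on FACS and -1.31 on time-lapse plates, and Eif3i at 0.21 and -0.44.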

How the results depend on the processing

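Of all alternative values 0 reversed and 81 (5.68%) moved, among them 29 (2.73%) of those for named differences. Many of these alternatives left out a plate. A call between lines already needs the same direction on every plate, so leaving out a plate could not reverse it. A mean taken without a plate also stays within the range of the plates. The 0 and the low percentages were therefore partly fixed in advance and do not show that the results are robust. With Rn45s left out, the members' share was 2.94, 2.60 and 2.70% in leukemia, T and HPC target wells, 2.90, 2.68 and 2.71% in random, 2.99, 2.61 and 2.93% in FACS and 3.05, 2.85 and 2.67% in time-lapse wells, and 1.84% in PBMC. Median-of-ratios scaling called 4 members in HPC against leukemia target wells, 2 in time-lapse against random HPC wells and 1 in target against FACS leukemia wells. Leaving Rn45s out, or averaging CPM over wells, also gave 1 in the last of these, and averaging gave 1 for target against FACS HPC and 2 for time-lapse against random HPC wells. With a pseudocount of 10 CPM, HPC against T gave 1 on target and 2 on FACS plates, T against leukemia 2 on random plates, and time-lapse against random leukemia wells 0. At 1.5-fold, T against leukemia and HPC against T gave 15 and 14 on target plates. T against leukemia, HPC against leukemia and HPC against T then gave 17, 17 and 19 on random, 16, 18 and 18 on FACS and 14, 21 and 21 on time-lapse plates. Time-lapse against random gave 3, 12 and 8 (leukemia, T, HPC), and target against FACS 2 in T and 3 in HPC wells.

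With each plate left out in turn, HPC against leukemia target wells gave 4 to 8 members, the 4 without plate 3. Target against FACS gave 0 to 2 in leukemia (2 without FACS plate 2), 0 to 3 in T (3 without FACS plate 1) and 0 to 5 in HPC wells (5 without FACS plate 2), and time-lapse against random HPC wells 1 to 2 (2 without random plate 3 or 4). B-like against T-like gave 2 to 4 (2 without PBMC plate 5) and NK-like against B-like 1 to 3 (1 without PBMC plate 6 or 8). Eif2s2 in HPC against T and Eif3i in HPC against leukemia wells lost their call without target plate 1, 2 or 3. Eif4e3 in HPC against T lost it without plate 1, when it fell under the 10 CPM minimum. The cause of the other changes was not tested. No alternative was possible for 20 paralog shares, where too few wells held at least 10 counts of the family. No paired analysis was possible because replicate numbers name wells and no test was run, so nothing was paired by these numbers, while line differences were taken within plates throughout. PBMC depth limits values to members of high level.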

Other observations

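On target plates, plates of 1 line differed among themselves most in the T line. Of the 48 members at 50 CPM or more there, 22 had a highest target plate at least 1.5-fold above the lowest, against 1 of 48 in the leukemia and 4 of 48 in the HPC line, while on random plates it was 2 of 49 in the T, 5 of 49 in the HPC and 1 of 47 in the leukemia class. The median ratio of highest to lowest plate was 1.46 in T target wells and 1.13 in the T class of random plates. Eif4ebp1 had the widest range, with 212.2, 240.5, 87.3 and 62.4 CPM on T target plates 1 to 4. Eif3c was likewise higher on plates 1 and 2 (936.8, 984.5, 523.3 and 506.9 CPM), while Eif4e was lower there (206.4, 184.96, 336.7 and 305.9 CPM). Of 6 genes of the ATF4 response, chosen after values of these data were seen, 5 were higher on plates 1 and 2 than on plates 3 and 4. Asns, the ATF4-induced asparagine synthetase, had 250.04, 222.4, 81.95 and 56.7 CPM on the same plates and the ATF4 and CHOP target Trib3 had 148.6, 127.8, 18.3 and 7.30 CPM. Ddit3, which encodes CHOP, had 124.6, 184.96, 42.1 and 40.5 CPM, Atf5 105.04, 78.2, 34.5 and 29.9 and Chac1 26.6, 18.5, 8.63 and 3.98. Sesn2 did not follow them, with 8.16, 9.25, 9.71 and 7.96 CPM. Asns was also higher on target plates 1 and 2 in leukemia (204.9, 307.7, 135.5 and 124.2 CPM) and HPC wells (66.04, 59.8, 25.5 and 40.8). Eif4ebp1 was so in leukemia (191.004, 215.3, 131.5 and 132.7 CPM) but not in HPC wells. Trib3 and Ddit3 followed in leukemia and Atf5 in HPC wells, and the other listed genes did not in these lines. A part of ATF4 in these plate differences was not tested. On the 2 FACS plates Eif4ebp1 was at 247.7 and 49.3 CPM in T, 378.2 and 165.4 in leukemia and 221.8 and 96.4 in HPC wells by class, and Asns at 216.7 and 57.8, 409.9 and 142.4 and 205.9 and 43.1. What differed between these plates in culture or handling was not measured.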
